A study of Mus musculus with 16 samples.

Results

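Lungs of mice that had breathed sidestream cigarette smoke only as adults (AS) were compared directly with lungs of mice that had been exposed to it only before birth (SA). All 4 arrays of each of these groups entered the comparison, 8 of the 16 arrays of the study, and every gene on the array was tested. The study crossed smoke or filtered air in utero with smoke or filtered air in adult life in male Balb/c mice, and read total RNA of the left lung at 15 weeks of age on Affymetrix 430 2.0 arrays. In the 2-letter names the first letter is the exposure in utero and the other is the adult exposure, A for air and S for smoke. The remaining groups were AA (air at both times), used here as the reference level, and SS (smoke at both times). The smoke carried 10 mg/m3 of particles, and sessions lasted 5 hours on all 7 days of the week. The labels describe replicates as separate animals and give no litter, no age at which adult exposure began and no hour between the last exposure and collection.

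The contrast sets lungs exposed in adult life against lungs whose only exposure ended before birth. Immediate early genes encode transcription factors and feedback proteins that cells switch on within minutes of a stimulus, without new protein synthesis, and switch off again soon after. The circadian clock of lung cells is a loop in which BMAL1 (Arntl) with CLOCK or NPAS2 drives the Per, Cry and Nr1d genes, whose products repress them in turn. The aryl hydrocarbon receptor (AhR) binds polycyclic aromatic compounds of smoke and induces Cyp1a1, Cyp1b1, Tiparp and Ahrr, while NRF2 governs antioxidant genes.

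Values are log2 intensities as deposited, and a gene is read at its brightest probe set, the one with the highest mean. Levels of different probe sets are not comparable with each other, so only differences between groups at 1 probe set are described. AS replicates 3 and 4 differed from each other by a root mean square of 0.098 on the log2 scale over the 300 most variable bright probe sets of the table, against 0.313 to 0.739 for the other 22 within-group pairs apart from SS replicates 1 and 2 (0.072). Each near-identical pair entered as its mean, as 1 sample. This gave 3 AS, 4 SA, 4 AA and 3 SS samples, and 7 samples of 14 in the direct comparison. The averaged AS sample stood apart from the other samples: its differences from the AA mean had an SD over probe sets of 0.29, against 0.207 and 0.228 for AS replicates 1 and 2 and 0.16 to 0.203 for the SA samples. The lung identity of the samples was clear from surfactant protein B (Sftpb), which read 13.73 to 14.24 in AS and 13.51 to 13.76 in SA. The difference between 3' and 5' control probe sets is a measure of RNA integrity. For Actb it was 0.17 to 0.33 in the 4 AS arrays and 0.35 to 0.42 in the 4 SA arrays. The groups overlapped for Gapdh (-0.14 to 0.02 in AS, -0.01 to 0.10 in SA), Tfrc (1.53 to 1.78 and 1.58 to 1.75) and Pcx (2.12 to 2.31 and 2.13 to 2.31). The part of RNA quality in the results below was not tested. In whole lung, fewer cells of a type and less RNA per cell cannot be told apart.

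At an adjusted p of 0.05 (limma with Benjamini-Hochberg adjustment over all 45037 probe sets), 1331 of 18193 genes differed between AS and SA, which is 7.32% of genes. Of these, 628 were higher in AS (3.45% of genes) and 703 were lower (3.86%). Every count of list members past the threshold given below is to be read beside these shares. The 3 AS and the 4 SA samples did not overlap in 1264 of the 1331 genes, and over all genes 20% had no overlap. Over all probe sets, named or not, 3291 passed (7.31%), 1527 of them higher in AS (3.39%) and 1764 lower (3.92%). Among higher genes with several probe sets, another passed in the same direction in 66 of 264 and in the opposite one in 2. Among such lower genes, another passed in the same direction in 128 of 473 and in the opposite one in 6. The differences were unequal in size: 42 genes were higher in AS by more than 1 on the log2 scale and 8 were lower by as much, and 10 were higher by more than 2 while none was lower by as much. The median difference was 0.36 among the higher genes and -0.34 among the lower ones, beside 0.02 over all genes. With only the AS and SA samples in the fit, 217 genes passed, and 38 of the 83 named genes past the threshold lost their call, as is said beside those described below. In the fit of all groups, leaving out AS replicate 1 left 821 genes, leaving out AS replicates 3 and 4 left 475, and leaving out SA replicate 1, 2 or 3 left 577, 785 and 448.

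Against the AA reference, the median distance of the genes past the threshold was larger on the AS side. The AA mean fell between the AS and SA means in 565 of the 628 higher genes and in 643 of the 703 lower genes. Choosing genes for a difference between AS and SA favours this position of AA. The share over all genes was not computed, so these counts are given as description only. AS was further from AA than SA was in 530 of the higher and 586 of the lower genes. The share over all genes was not computed for this count either. Over all probe sets, every AS sample differed more from the AA mean (SD 0.207 to 0.29) than any SA sample (0.16 to 0.203). AS also had fewer samples, so this count too is description only. The higher genes had a median of 0.26 in AS minus AA and -0.11 in SA minus AA, and the lower genes had -0.23 and 0.11. In the same fit 204 genes (1.12%) passed the threshold in AS minus AA. No gene (0%) passed it in SA minus AA, where 900 genes had an unadjusted p under 0.05 in limma and the lowest adjusted p was 0.322. Both comparisons use the same AA samples, so their values are given side by side only.

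**Figure D1:**
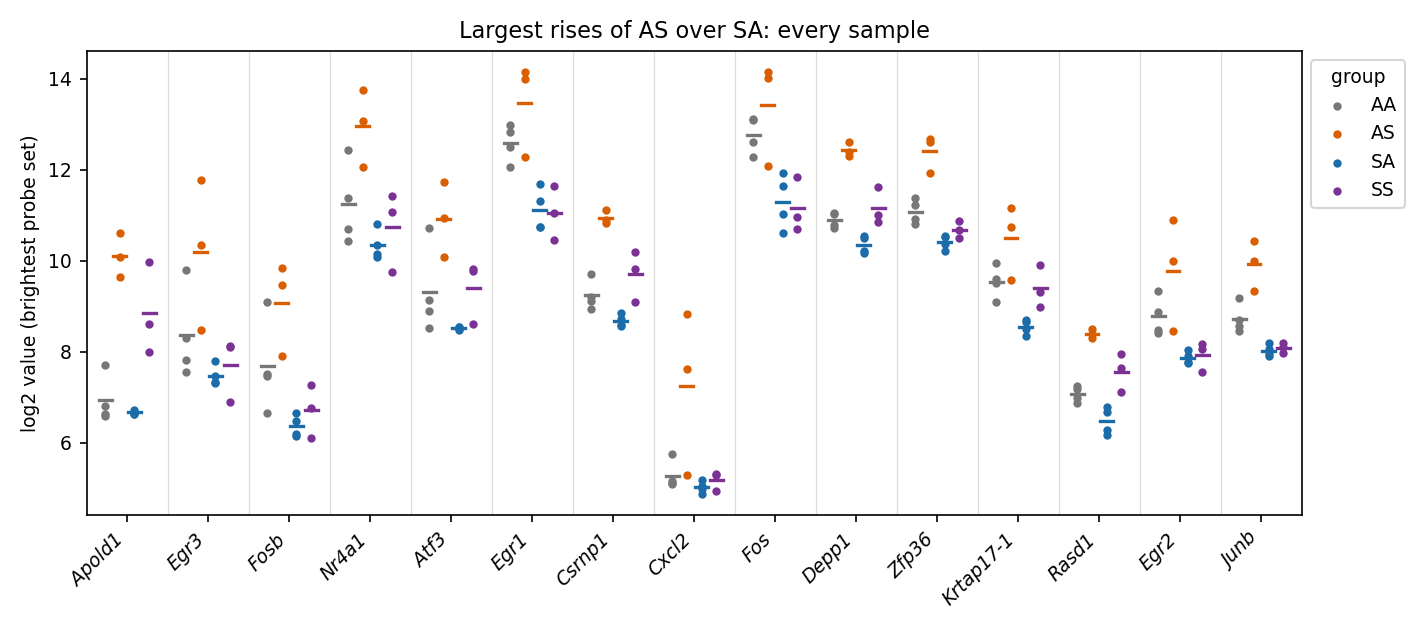
The 15 largest rises of AS over SA among genes chosen for no overlap between these groups, with 1 point per sample and the log2 value of the brightest probe set on the vertical axis; bars are group means of 4 AA, 3 AS, 4 SA and 3 SS samples. By that choice all AS points lie above all SA points; for Egr1 and Fos the AA points lie above every SA point while the SS points lie among or near the SA points.

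Immediate early genes were 11 of the 15 largest rises among the genes without overlap between AS and SA, and 17 of the 42 genes higher in AS by more than 1. Of 28 measured members of the list, 23 were higher in AS than in SA and none was lower, with a list median of 1.65 against 0.02 over all genes. The median was 0.99 in AS minus AA and -0.45 in SA minus AA, and 10 members passed in AS minus AA. The members that did not pass were Nr4a3 (1.95, adjusted p = 0.0501), Nr4a2 (1.63, adjusted p = 0.0513), Fosl2 (0.63, adjusted p = 0.103), Klf6 (0.40, adjusted p = 0.055) and Ier5 (-0.26, adjusted p = 0.123) in limma. The list mean per sample, relative to AA, was 1.04, 1.53 and 0.45 in AS replicate 1, replicate 2 and the average of replicates 3 and 4, and lay between -0.60 and -0.41 in SA. The AA samples spanned -0.25 to 0.47 by the same measure, so the averaged AS sample lay within the range of AA and above that of SA. Without AS replicates 3 and 4 the list median was 2.17, and without AS replicate 2 it was 1.34.

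Apold1, which endothelial cells induce early after stimulation, had the largest difference of all genes. It read 9.64, 10.62 and 10.08 in AS and 6.63, 6.72, 6.68 and 6.63 in SA, a difference of 3.45 ± 0.37 (SE), or 10.9-fold, with an adjusted p of 0.00026 in limma. The AS samples lay far above the SA samples, which were tightly grouped. AA read 6.59 to 7.71 and SS 7.98 to 9.97, so SS lay above all AA samples, with its highest sample inside the AS range. Apold1 also passed in AS minus AA (3.18, adjusted p = 0.00128) and in SS minus AA (1.93, adjusted p = 0.0389), both from limma.

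Among the subunits of the AP-1 transcription factor, Fos read 14.02, 14.14 and 12.09 in AS and 11.64, 11.92, 10.61 and 11.03 in SA, a difference of 2.12 ± 0.44 (adjusted p = 0.0147, limma). The averaged AS sample was only slightly above the highest SA sample. Fos in AA read 12.28 to 13.12, above all SA samples and below AS replicates 1 and 2, and in SS it read 10.69 to 11.84. Without AS replicate 1 the difference in Fos was 1.81 with an adjusted p of 0.0509, and in the fit of AS and SA alone Fos also missed the threshold. Fosb, a partner of the same family, was higher by 2.71 ± 0.49, and Junb by 1.90 ± 0.20. Junb read 9.99, 10.44 and 9.34 in AS, 7.91 to 8.18 in SA and 8.46 to 9.18 in AA. Its AS samples all lay above AA and its SA samples all lay below. Atf3, a stress-induced factor that dimerises with AP-1 proteins, was higher by 2.4 ± 0.45.

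The zinc finger factors of the EGR family, which are targets of growth factor signalling, followed. Egr1 read 13.997, 14.15 and 12.28 in AS and 11.31, 11.68, 10.75 and 10.75 in SA, a difference of 2.35 ± 0.40 (adjusted p = 0.00492, limma). Egr1 in AA read 12.05 to 12.99, above all SA samples, and in SS it read 10.46 to 11.64. Neither AS minus AA (0.89) nor SA minus AA (-1.47) passed the threshold for Egr1, with adjusted p of 0.233 and 0.652. Egr3 was higher in AS by 2.73 ± 0.62 and Egr2 by 1.92 ± 0.39. Egr3 lost its call without AS replicate 1 (2.65, adjusted p = 0.0526) and without SA replicate 3 (2.73, adjusted p = 0.052), and Egr2 in the fit of AS and SA alone (adjusted p = 0.0588). Nr4a1, an orphan nuclear receptor also induced in stimulated immune cells, read 13.08, 13.75 and 12.06 in AS and 10.08 to 10.81 in SA, with AA at 10.43 to 12.44. Its difference was 2.62 ± 0.48 (adjusted p = 0.00735, limma), and the AA range bridged the gap between the groups.

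Other large rises were of RNA-binding, nuclear and structural proteins. Zfp36, of the immediate early list, encodes tristetraprolin, which binds AU-rich elements and speeds the decay of cytokine and early gene messages. It read 12.60, 12.67 and 11.94 in AS, 10.22 to 10.54 in SA, 10.80 to 11.38 in AA and 10.50 to 10.86 in SS. All AS values lay above AA and all SA values lay below it, and the difference between AS and SA was 1.99 ± 0.17 (adjusted p = 5.87e-05, limma). Btg2, an antiproliferative cofactor of mRNA deadenylation on the same list, was higher by 1.77 ± 0.26. Csrnp1, a nuclear protein of the early response, read 10.90, 11.11 and 10.83 in AS and 8.57 to 8.86 in SA, a difference of 2.27 ± 0.21. The other probe set of Csrnp1 differed by 0.24 and did not pass. Depp1, a target of FOXO factors, had the lowest adjusted p among the 15 largest rises (1.68e-05, limma), with 12.31, 12.40 and 12.62 in AS and 10.18 to 10.54 in SA. Krtap17-1, a keratin-associated protein gene, was higher by 1.95 ± 0.30, with 10.73, 11.17 and 9.59 in AS, 8.35 to 8.70 in SA and 9.09 to 9.96 in AA. The averaged AS sample was the highest of the 3 for Depp1, whereas for Fos, Egr1 and Zfp36 it was the lowest.

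Among feedback inhibitors of MAP kinase signalling, 7 of 15 measured members were higher in AS and 1 was lower, with a list median of 0.21. Errfi1, which blocks the EGF receptor, was higher by 1.74 ± 0.23 and Spry4, an inhibitor of receptor tyrosine kinase signalling, by 1.42 ± 0.20. Dusp1, the phosphatase of p38 and JNK, was higher by 1.0 ± 0.14. Dusp6, the phosphatase of ERK, read 12.82, 12.87 and 12.92 in AS and 11.86 to 12.20 in SA, with AA at 12.34 to 12.41 and SS at 11.85 to 11.97. Its groups separated in the order AS, AA and then SA with SS, and the difference of AS from SA was 0.78 ± 0.08 (adjusted p = 0.000136, limma). Spry1 (0.21) and Spry2 (0.15) did not pass. Without SA replicate 1, 5 members of the list passed in either direction, and without AS replicates 3 and 4 the list median was 0.32.

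The spread of the early genes was wider in AS than in SA: over the 23 members that passed, the SD of the AS samples was a median of 2.77 times that of the SA samples. AS replicate 2 was the highest AS sample in 19 of them and the averaged sample was the lowest in 15. The fit shared 1 spread per gene among the 4 groups, and AS had fewer samples than SA. For genes that varied most in AS, ± and p therefore understate the uncertainty. Among these were Egr3 (SD of 1.66 in AS and 0.22 in SA) and Fos (1.15 and 0.59). Relative to AA, SS was lower in 16 of the 23 and higher in 7. AA lay between AS and SA in 22 of the 23, a position favoured by the choice of genes that differ between AS and SA.

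Promoters are shown for those of the 15 largest rises with a cyclic AMP response element, AP-1 site, E-box or CArG box. Promoters were searched because these genes were higher together. Promoter windows of 300 bases (250 before and 50 after the start, RefSeq, GRCm38.p6) were matched for 14452 of the 18193 genes and for 33 of the 42 genes higher in AS by more than 1. Only the first listed window of a gene was searched, although 4163 genes of the reference had several, so other starts were not covered. The motifs searched on both strands were the cyclic AMP response element TGACGTCA, the AP-1 site TGANTCA, the E-box CACGTG, the CArG box of serum response factor, the AhR core GCGTG and the glucocorticoid receptor element. These letter patterns are distinct, although 1 window can hold several. Of the 15 largest rises, 12 had a window and Egr1, Egr3 and Rasd1 were not searched. Among the 12, Zfp36 held a CArG box that begins 58 bases before its start and Egr2 held a CACGTG that begins 27 bases before. The Zfp36 stretch lies at chr7:28379229-28379378 on the minus strand and the Egr2 stretch at chr10:67535349-67535498 on the plus strand, each of 150 bases with the motif in capitals.
Zfp36: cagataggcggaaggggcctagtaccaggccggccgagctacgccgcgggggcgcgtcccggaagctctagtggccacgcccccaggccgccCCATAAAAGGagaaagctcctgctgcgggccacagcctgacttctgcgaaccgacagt
Egr2: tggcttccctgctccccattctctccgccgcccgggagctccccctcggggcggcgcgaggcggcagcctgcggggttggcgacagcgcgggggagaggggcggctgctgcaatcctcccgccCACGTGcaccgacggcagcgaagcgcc

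TGACGTCA was held by 5 of the 33 promoters of the large rises (15.2%), beside 2.68% of promoters of all genes tested, 2.96% of those of the 628 higher genes and 1.06% of those of the 703 lower genes. TGANTCA was held by 3 (9.09%, beside 6.33% of all), CACGTG by 5 (15.2%, beside 9.02%), the CArG box by 1 (3.03%, beside 1.36%) and GCGTG by 19 (57.6%, beside 44.2%). The glucocorticoid receptor element was held by none of the 33 (0.353% of all). The 5 promoters with TGACGTCA were picked out after their values had been seen and are printed around the motif, in capitals, 5′ to 3′ on the strand of the gene. They belong to Btg2 (chr1:134079302-134079333, minus strand), the stress-induced phosphatase subunit Ppp1r15a (chr7:45526269-45526292, minus), cholesterol 25-hydroxylase Ch25h (chr19:34475190-34475221, minus), the kinase Plk2 (chr13:110394970-110395001, plus) and Dusp1 (chr17:26508596-26508627, minus). A match of letters describes the window and is not a binding site shown by these data.
Btg2: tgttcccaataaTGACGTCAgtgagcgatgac
Ppp1r15a: ccgcctctccggTGACGTCAgcac
Ch25h: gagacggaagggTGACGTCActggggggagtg
Plk2: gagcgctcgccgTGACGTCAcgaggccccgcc
Dusp1: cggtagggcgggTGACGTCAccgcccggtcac

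Some chemokines and cytokines were higher in AS, chiefly in AS replicates 1 and 2. Of 13 measured chemokines for neutrophils and monocytes, 6 were higher and none was lower, with a list median of 0.60, beside 0.36 in AS minus AA, where none passed in limma, and -0.25 in SA minus AA. The list mean per sample, relative to AA, was 0.37, 1.05 and -0.03 in AS replicates 1, 2 and the average of 3 and 4, and -0.33 to 0.04 in SA. The averaged AS sample therefore lay within the SA range, and without AS replicate 2 the list median was 0.34. Cxcl2, a neutrophil chemokine, read 7.63, 8.83 and 5.28 in AS and 4.87 to 5.18 in SA, with AA at 5.08 to 5.75. The averaged AS sample thus lay inside the AA range and just above SA. The SD of Cxcl2 was 1.80 in AS and 0.13 in SA, while the fit shared 1 spread among all groups. The ± and p of Cxcl2 therefore understate the uncertainty. Its difference of 2.23 ± 0.53 (adjusted p = 0.0243, limma) rested on AS replicates 1 and 2. It was 1.44 without AS replicate 2. It missed the threshold when AS replicate 1 (2.04, adjusted p = 0.0679), SA replicate 1 (2.24, adjusted p = 0.0525) or SA replicate 3 (2.22, adjusted p = 0.0603) was left out, and in the fit of AS and SA alone. Ccl3, a chemokine of activated macrophages, read 7.66, 8.93 and 6.39 in AS and 5.84 to 5.91 in SA, a difference of 1.80 ± 0.40 that was 1.16 without AS replicate 2. Ccl3 missed the threshold in the fit of AS and SA alone and in the unmoderated test, with adjusted p up to 0.0749. Of the chemokines, 3 passed when AS replicate 2 or SA replicate 2 was left out, 2 when SA replicate 1 was left out and 1 when SA replicate 3 was left out.

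Ccl12, a monocyte attractant, read 6.94, 7.76 and 6.53 in AS and 5.36 to 6.54 in SA, while AA read 6.42 to 7.28. The AS samples overlapped the AA samples and the SA samples lay mostly below both, with an AS minus AA of 0.19 and an SA minus AA of -1.11. The difference of AS from SA, 1.30 ± 0.29 (adjusted p = 0.0182, limma), missed the threshold without SA replicate 1 (1.22, adjusted p = 0.0502) or SA replicate 3 (1.27, adjusted p = 0.0514), in the fit of AS and SA alone and in the unmoderated test. Il6, a cytokine of acute inflammation, differed by 1.91 ± 0.54 (adjusted p = 0.0451, limma), but its call was lost when any of 12 of the 14 samples was left out, with adjusted p up to 0.122, and in the fit of AS and SA alone. Nfkbia and Tnfaip3, inhibitors of NF-kB signalling, kept their calls in all 14 omissions of a sample. Nfkbia, the inhibitor of NF-kB, read 13.81, 13.69 and 13.70 in AS and 13.15 to 13.30 in SA, a difference of 0.51 ± 0.07, and all 5 of its probe sets were higher in AS. Tnfaip3, a deubiquitinase of the same pathway, was higher by 0.75 ± 0.16. Of the 16 cytokine and NF-kB feedback genes, 4 passed, all higher, with a list median of 0.17. Without AS replicate 2 the median was 0.02, and without AS replicates 3 and 4 it was 0.34. When AS replicate 2 or SA replicate 1, 2 or 3 was left out, 2 members passed. The list mean relative to AA was 0.17, 0.48 and -0.10 in the AS samples and -0.18 to 0.01 in SA, so the averaged AS sample lay within the SA range here as well.

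Neutrophil markers were examined beside these chemokines. The 13 measured markers had a median of 0.44 in AS minus SA and all 13 lay above 0, but only Mpo (0.44, adjusted p = 0.0408, limma) passed, and its call was lost in 10 of 14 omissions of a sample and in the fit of AS and SA alone. The list median was 0.29 without AS replicate 1 and 0.24 without AS replicate 2. The mean level of the marker list ranged from 7.76 to 8.35 in AS, 7.45 to 7.94 in SA, 7.47 to 8.36 in AA and 7.81 to 8.0 in SS. S100a8, an abundant neutrophil protein, read 11.72, 12.49 and 10.96 in AS and 10.67 to 11.64 in SA, an overlap. The part of neutrophil content in the chemokine values was not tested.

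Of 6 measured activators of the clock, 3 were lower in AS and none was higher: Npas2, Arntl and Clock were lower. Npas2 read 6.16, 5.39 and 6.18 in AS, 6.99 to 7.93 in SA and 6.44 to 7.20 in AA, and was lower in AS by 2.74-fold (-1.45 ± 0.27, adjusted p = 0.00726, limma). Arntl read 8.29, 7.68 and 8.04 in AS, 8.92 to 9.19 in SA, 8.56 to 9.11 in AA and 7.82 to 8.50 in SS (AS minus SA -1.05 ± 0.17). Every AS sample of Arntl lay below every AA sample, and SA overlapped AA. Npas2 and Arntl each have 2 probe sets, and the dimmer did not pass, with differences of -0.25 and -0.22. Clock was lower by a smaller amount (-0.46 ± 0.08). The receptors Rora (-0.10) and Rorb (0.25) did not pass, nor did Nfil3 (0.32), a repressor of clock outputs kept on this list.

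Of the 13 repressors and outputs of the clock, 8 were higher in AS and 1 was lower, with a median of 0.58. Per1, a repressor that is also induced directly by glucocorticoids and cyclic AMP, read 10.36, 10.44 and 10.73 in AS, 8.13 to 9.41 in SA, 9.30 to 9.92 in AA and 10.00 to 10.46 in SS. The AS and SS samples all lay above AA, while all SA samples but 1 lay below it, and the difference of AS from SA was 1.79 ± 0.23 (adjusted p = 0.000865, limma). Dbp, a transcription factor driven by BMAL1 and CLOCK, read 10.40, 11.08 and 10.11 in AS and 8.30 to 9.71 in SA, a difference of 1.63 ± 0.39. It missed the threshold without AS replicate 2 (1.36, adjusted p = 0.061) or SA replicate 1 (1.43, adjusted p = 0.066). Bhlhe40 was higher by 0.83 ± 0.15. Nr1d1, which represses Arntl, differed by 0.78 ± 0.22 and lost its call in 10 of 14 omissions, with adjusted p up to 0.183, and in the fit of AS and SA alone. The 1 member that was lower was Cry1, named here after its values were seen, at 7.79, 7.99 and 7.49 in AS against 8.22 to 8.33 in SA (-0.55 ± 0.09). Without SA replicate 1, 5 members passed in either direction. The labels give a 12-hour light cycle without the hour of collection, so the phase of the clock and the exposure cannot be told apart.

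Genes induced by glucocorticoids shared Per1, Errfi1 and Dusp1 with the lists above. Of 14 measured, 8 were higher in AS and none was lower, with a median of 0.62 in AS minus SA, 0.43 in AS minus AA, -0.31 in SA minus AA and 0.57 in SS minus AA. Mt2, a metallothionein, read 9.92, 10.22 and 9.85 in AS and 8.50 to 9.69 in SA, a difference of 1.10 ± 0.28 that was lost in 6 of 14 omissions of a sample (adjusted p up to 0.0841) and in the fit of AS and SA alone. Rasd1, a small G protein first found as dexamethasone-induced and not on this list, was at 8.50, 8.38 and 8.29 in AS and 6.18 to 6.78 in SA. Its difference was 1.92 ± 0.18 (adjusted p = 8.61e-05, limma), and SS lay between at 7.11 to 7.94. Fkbp5, a chaperone and a classic target of the receptor, differed by 0.39 ± 0.35 and did not pass (adjusted p = 0.496, limma), while it was higher in SS than in AA by 1.84 (adjusted p = 0.0341, limma). Without AS replicate 1, AS replicates 3 and 4, SA replicate 2 or SA replicate 3, 5 members passed.

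**Figure D2:**
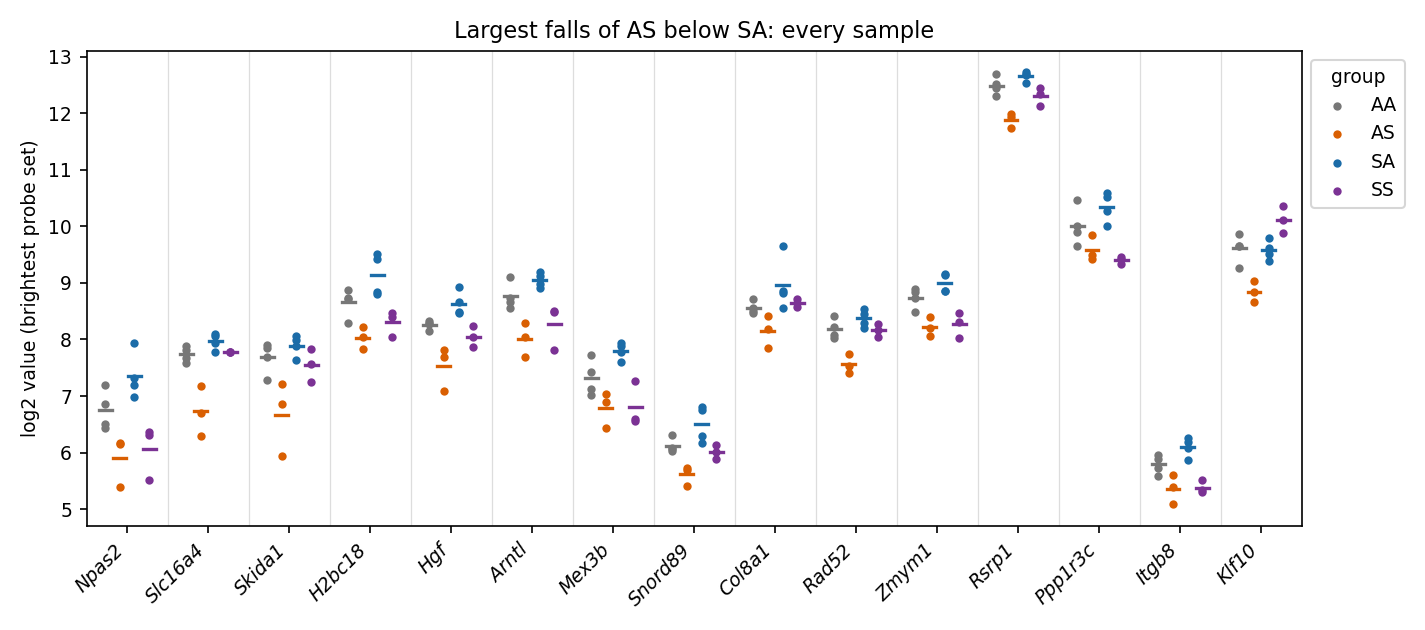
The 15 largest falls of AS below SA among named genes chosen for no overlap between these groups, with 1 point per sample and the log2 value of the brightest probe set on the vertical axis; bars are group means of 4 AA, 3 AS, 4 SA and 3 SS samples. By that choice all AS points lie below all SA points; in Klf10 the SS points lie above those of the other groups.

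The falls were smaller and came from varied genes, and the largest of all was of an unnamed transcript that is counted only. Slc16a4, of the monocarboxylate transporter family, read 6.71, 6.30 and 7.18 in AS, 7.77 to 8.10 in SA, 7.58 to 7.89 in AA and 7.78 to 7.79 in SS. It was thus low in AS alone of the 4 groups, and its difference from SA was -1.24 ± 0.15 (adjusted p = 0.000722, limma), with -1.01 in AS minus AA. Its other probe set differed by 0.18. Hgf, the ligand of the MET receptor and a growth factor for alveolar epithelium, read 7.82, 7.70 and 7.08 in AS, 8.47 to 8.92 in SA, 8.15 to 8.33 in AA and 7.87 to 8.24 in SS. It was lower in AS than in SA by 2.14-fold (-1.10 ± 0.15, adjusted p = 0.00169, limma), and 2 of its 3 probe sets passed. Rsrp1, an arginine- and serine-rich protein, was lower at all 3 of its probe sets, by -0.77 ± 0.10 at the brightest, with 11.74 to 11.99 in AS and 12.54 to 12.72 in SA.

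Rad52, a DNA repair protein, read 7.53, 7.40 and 7.75 in AS and 8.20 to 8.54 in SA (-0.81 ± 0.11). Itgb8, the integrin subunit that activates latent TGF-beta, read 5.60, 5.38 and 5.09 in AS, 5.87 to 6.26 in SA and 5.30 to 5.51 in SS (-0.74 ± 0.12). For Itgb8 all SS samples, and all AS samples but 1, lay below AA at 5.59 to 5.96. Klf10, a TGF-beta-inducible Krueppel-like factor, read 8.84, 8.65 and 9.04 in AS and 9.39 to 9.79 in SA (-0.73 ± 0.14). In Klf10 the group with both exposures went the other way, at 9.89 to 10.35 against 9.27 to 9.86 in AA. Further falls were those of Skida1 (-1.22), the histone gene H2bc18 (-1.11), the RNA-binding protein Mex3b (-1.01), the small nucleolar RNA Snord89 (-0.89), Zmym1 (-0.78) and the glycogen-targeting phosphatase subunit Ppp1r3c (-0.76). The other probe set of Skida1 differed by 0.01. Ppp1r3c missed the threshold without AS replicates 3 and 4 (-0.71, adjusted p = 0.0725) or SA replicate 3 (-0.70, adjusted p = 0.06). Col8a1, a type VIII collagen chain, passed as well, at 1 of its 3 probe sets. It missed the threshold without AS replicate 1 (-0.83, adjusted p = 0.0521) or AS replicates 3 and 4 (-0.66, adjusted p = 0.107), and in the fit of AS and SA alone.

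Interferon-stimulated genes were lower in AS where they differed. Of 18 measured, 8 were lower and none was higher, with a median of -0.27 in AS minus SA, -0.20 in AS minus AA and 0.01 in SA minus AA. Apart from Ifit2 (-0.28), named after its values were seen, they were interferon-gamma-inducible GTPases, which take part in defence against pathogens. Gbp8 read 7.71, 7.54 and 7.30 in AS, 7.86 to 8.25 in SA, 8.07 to 8.13 in AA and 7.44 to 7.62 in SS, so that AS and SS lay together below AA and SA. Its difference between AS and SA was -0.59 ± 0.10 (adjusted p = 0.00511, limma), and that between SS and AA was -0.58 (adjusted p = 0.0229, limma). Irgm2 (-0.50 ± 0.10), Gbp6 (-0.44 ± 0.08) and Igtp (-0.37 ± 0.08) were lower too. Igtp missed the threshold without AS replicates 3 and 4 (-0.32, adjusted p = 0.0618), and all 3 of these missed it in the fit of AS and SA alone. Rsad2, an antiviral gene of type I interferon, did not pass (-0.60 ± 0.58). The count of members that passed was 5 without AS replicate 1, 5 without AS replicate 2, 3 without AS replicates 3 and 4 and 4 without SA replicate 3. It was 4 after further quantile normalization of the arrays, and 1 to 9 over all alternatives.

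Of 9 measured AhR targets, 2 were higher in AS (Cyp1b1 and Tiparp) and none was lower, where 3.45% of all genes were higher. AS and SA did not overlap in 3 of the 9, where 20% of all genes had no overlap, and the list median was 0.00. Cyp1b1 read 8.27, 7.88 and 8.17 in AS, 7.42 to 7.74 in SA, 7.47 to 7.79 in AA and 8.14 to 8.35 in SS, a difference of 0.52 ± 0.11 (adjusted p = 0.0161, limma). The groups with adult smoke lay above those without. It missed the threshold without AS replicate 1 (0.44, adjusted p = 0.0554) or AS replicates 3 and 4 (0.49, adjusted p = 0.0568), and Tiparp (0.35 ± 0.10) lost its call in 8 of 14 omissions (adjusted p up to 0.102). Both missed the threshold in the fit of AS and SA alone, and no AhR target passed without AS replicate 1 or without AS replicates 3 and 4. Cyp1a1, the classic target, read 8.78, 8.78 and 8.98 in AS and 8.32 to 8.69 in SA, without overlap, but its difference of 0.37 ± 0.19 did not pass (adjusted p = 0.221, limma). In SS it read 9.61 to 10.12, above every sample of the other groups. The repressor Ahrr differed by 0.00 ± 0.09, and the quinone reductase Nqo1 by -0.18 ± 0.10 (adjusted p = 0.261). Of the 17 NRF2 antioxidant genes none passed in limma, and 1 was higher and 1 lower at an unadjusted p under 0.05.

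Few genes of type 2 immunity and mucus passed. Of 23 measured, 3 were higher in AS and 1 was lower, beside 3.45% and 3.86% of all genes. Muc5ac, the main gel-forming mucin of goblet cells, read 6.91, 6.72 and 6.78 in AS, 6.27 to 6.51 in SA, 6.24 to 6.35 in AA and 6.53 to 6.59 in SS. Its AS samples lay above all others, and its difference from SA was 0.43 ± 0.07 (adjusted p = 0.00386, limma). Retnla, secreted in type 2 responses, read 10.31, 10.31 and 10.06 in AS, 9.24 to 9.69 in SA and 10.28 to 10.85 in SS, a difference of 0.77 ± 0.14. Both groups with adult smoke were above both groups without it for Retnla. Chia1, the acidic chitinase, was higher by 0.32 ± 0.07. Tslp, an epithelial cytokine, was lower (-0.51 ± 0.12) and missed the threshold in 4 of 14 omissions of a sample, with adjusted p up to 0.0967. Chia1 and Tslp missed it in the fit of AS and SA alone. Il4 (0.37), Ccl24 (0.48) and Muc5b (0.46) did not pass.

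Some genes had a larger SA than AS distance from AA. Cdkn2c, an inhibitor of the CDK4 and CDK6 kinases, read 10.79 to 10.83 in SA, 10.50 to 10.54 in AS, 10.42 to 10.55 in AA and 10.34 to 10.37 in SS. Its SA samples stood above all others, with a difference of AS from SA of -0.29 ± 0.06 (adjusted p = 0.00928, limma), an SA minus AA of 0.33 and an adjusted p of 0.322 for the latter. In the fit of AS and SA alone Cdkn2c missed the threshold (adjusted p = 0.0758). Gata3, a transcription factor of T helper 2 and innate lymphoid cells, read 6.93 to 7.64 in SA, 6.50 to 6.83 in AS, 6.69 to 7.01 in AA and 5.71 to 6.18 in SS. SS was lower than AA by 0.81 in Gata3 (an SS minus AA of -0.81), and AS lower than SA (-0.72 ± 0.16, adjusted p = 0.0174, limma). That call was lost without AS replicates 3 and 4 (-0.64, adjusted p = 0.0709) or SA replicate 3 (-0.68, adjusted p = 0.052), and in the fit of AS and SA alone. Lum, a proteoglycan of fibroblasts, was lower in AS by -0.60 ± 0.15, with 0.52 in SA minus AA and -0.08 in AS minus AA, and missed the threshold in 4 of 14 omissions (adjusted p up to 0.105).

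Of 13 cholesterol synthesis genes 2 were lower in AS, with a list median of -0.23, 12 of 13 below 0 and 8 lower at an unadjusted p under 0.05 in limma. Squalene epoxidase (Sqle) read 9.70 to 9.82 in AS and 9.86 to 10.08 in SA (-0.26 ± 0.07), and lanosterol demethylase (Cyp51) read 8.40 to 8.66 in AS and 8.82 to 8.94 in SA (-0.36 ± 0.10). Sqle lost its call in 5 and Cyp51 in 10 of 14 omissions of a sample, and both in the fit of AS and SA alone. After further quantile normalization no member of the list passed (limma, adjusted p of 0.0739 for Sqle and 0.0893 for Cyp51). Among 16 collagens 1 was lower, and among 13 elastic fibre genes none passed, with 1 higher and 2 lower at an unadjusted p under 0.05 in limma. Of 19 proteases and antiproteases of emphysema, Adamts1 was higher (1.09 ± 0.20). Of 18 genes of TGF-beta and BMP signalling, 1 was higher and 1 lower. Counts of 1 among 16 to 19 genes lie near the shares over all genes, 3.45% higher and 3.86% lower. Of 8 enzymes of DNA methylation and 15 imprinted growth genes none passed, with 1 higher and 1 lower, and 0 higher and 2 lower, at an unadjusted p under 0.05. None of 13 heat shock genes passed (0 higher and 1 lower at an unadjusted p under 0.05), and none of 8 genes of MHC class II passed (3 higher and 0 lower). Of 19 hypoxia and glycolysis genes 3 were higher: Stc1 (0.85 ± 0.14), Pfkfb3 (0.67 ± 0.10) and Egln3 (0.34 ± 0.07), of which Egln3 missed the threshold in the fit of AS and SA alone.

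Few markers of epithelial cells and of endothelium passed. Of 11 AT1 markers, 1 was lower in AS, Akap5 (-0.39, adjusted p = 0.0237, limma), with a list median of -0.04. Akap5 lost its call in 5 of 14 omissions of a sample and in the fit of AS and SA alone. None of 11 AT2, 9 club, 14 ciliated and 18 endothelial markers passed in limma, with list medians of 0.02, 0.06, 0.05 and 0.00. At an unadjusted p under 0.05 there were 1 higher and 1 lower AT2 marker, 1 higher club, 1 higher ciliated and 3 higher endothelial markers. Among 14 smooth muscle and pericyte markers 2 were lower in AS: Synpo2, an actin-bundling protein (-0.56 ± 0.10), and Myh11, the smooth muscle myosin (-0.37 ± 0.10), whose call was lost in 12 of 14 omissions and in the fit of AS and SA alone. Adipocyte markers had a median of 0.24, with 10 of 10 above 0, and 4 higher at an unadjusted p under 0.05. Of these only Ucp1, the thermogenic protein of brown fat, passed after adjustment (0.41 ± 0.11). Their list mean relative to AA was 0.03, -0.23 and 0.13 in AS and -0.44 to -0.16 in SA, with an overlap. Mesothelial markers had a median of -0.12, with 8 of 10 below 0, and 3 lower at an unadjusted p under 0.05, of which Lrrn4 passed after adjustment (-0.38 ± 0.10). Ucp1 and Lrrn4 each lost the call in 4 of 14 omissions and in the fit of AS and SA alone. For 13 markers of B and plasma cells the median was 0.20 in AS minus SA and -0.74 in SS minus AA, with none past the threshold in AS minus SA (2 higher and 1 lower at an unadjusted p under 0.05). That median was -0.01 without AS replicate 2 and 0.46 without AS replicates 3 and 4. The cell cycle list had a median of -0.19 that became 0.02 without SA replicate 4 and -0.33 without SA replicate 1 or 3. In that sample its mean relative to AA was 0.91, against -0.06 to -0.01 in the other SA samples.

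**Figure D3:**
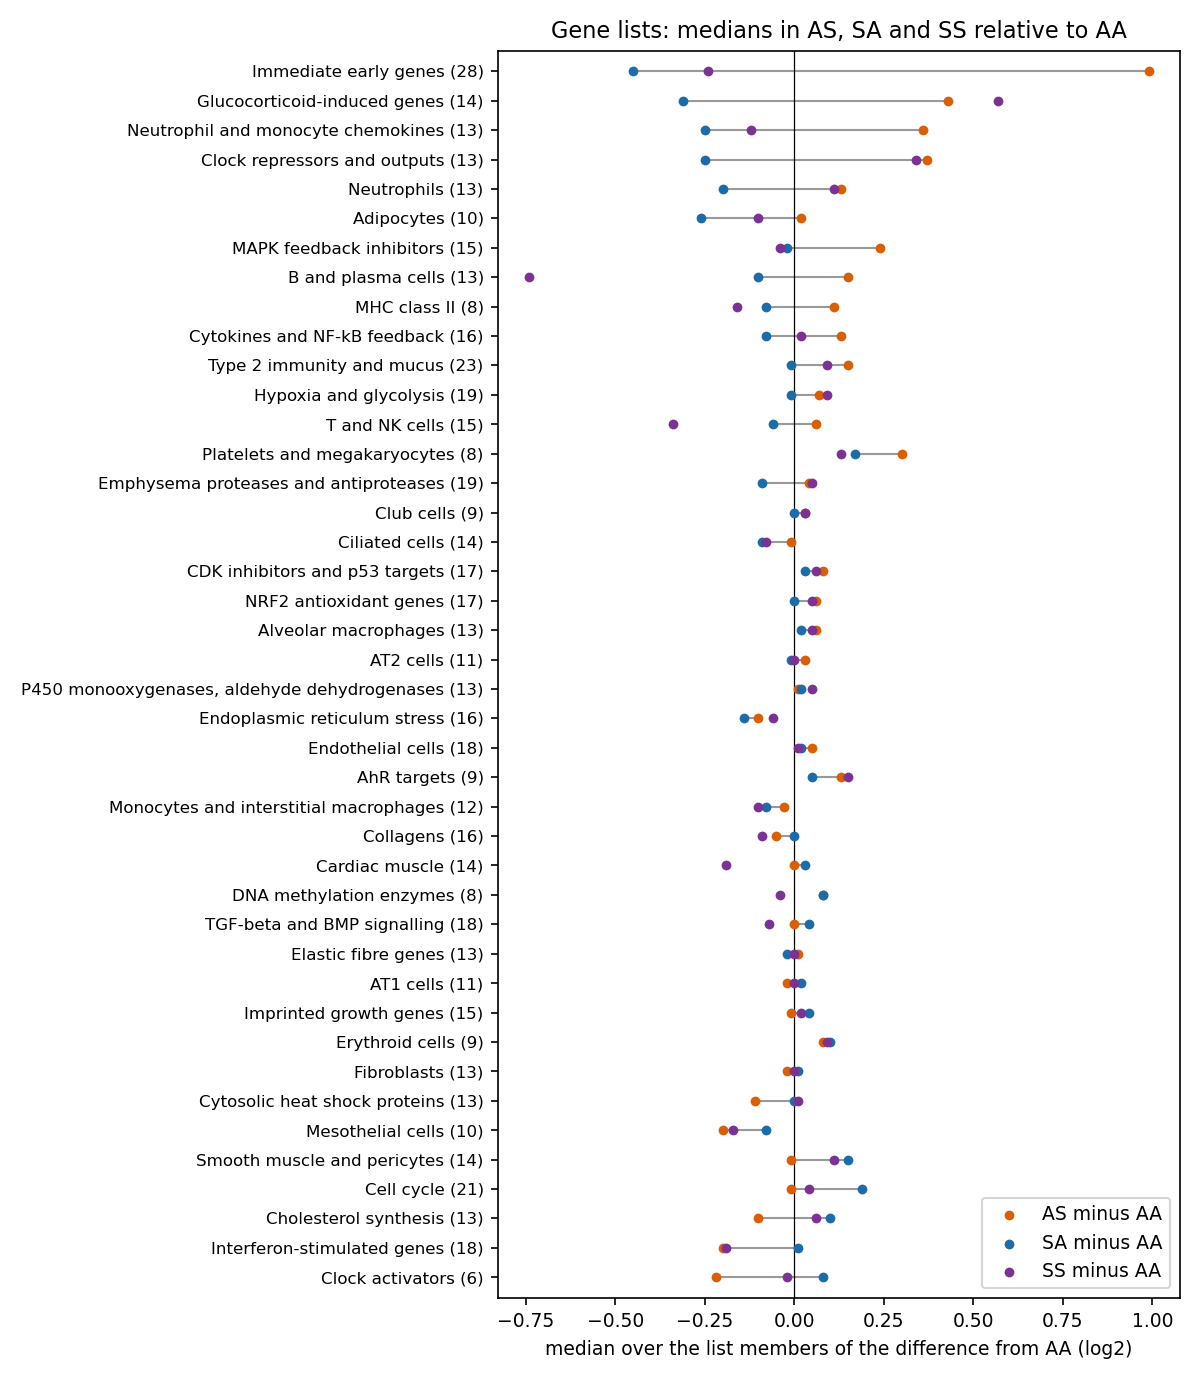
Median difference from AA (log2, horizontal axis) over the members of each gene list for AS, SA and SS, with the number of members measured in brackets and a line that joins SA to AS. Immediate early genes have the longest line, from -0.45 in SA to 0.99 in AS, and most lists of cell type markers have short ones.

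The SS group gave a reading of these genes that shares no sample with AS or SA. If the exposures add, AS minus SA is the difference of the adult and the in-utero effects and SS minus AA is their sum, so the sign of SS minus AA follows the larger of them. Of the 628 genes higher in AS, 479 (76.3%) were also higher in SS than in AA, and of the 703 lower genes 546 (77.7%) were also lower. Over all genes 49.2% were higher and 50.8% lower in SS than in AA. Those shares are not matched for brightness, and the higher genes were dimmer than the lower ones (median log2 levels of 6.49 and 9.14). The median of SS minus AA was 0.04 in genes with a mean under 6 and -0.02 in genes with a mean over 9. The part of brightness in the equal signs was not tested. In SS minus AA itself 94 genes (0.517%) passed. Of the 42 genes higher in AS by more than 1, SS was above AA in 18 and below it in 24. SA was below AA in all 42, which their choice for a large AS minus SA favours. Apold1, Per1, Rasd1 and Retnla had a positive SS minus AA (1.93, 0.60, 0.50 and 0.94), and Egr1 and Fos a negative one (-1.54 and -1.61), of which those of Apold1 and Retnla passed the threshold.

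**Figure D4:**
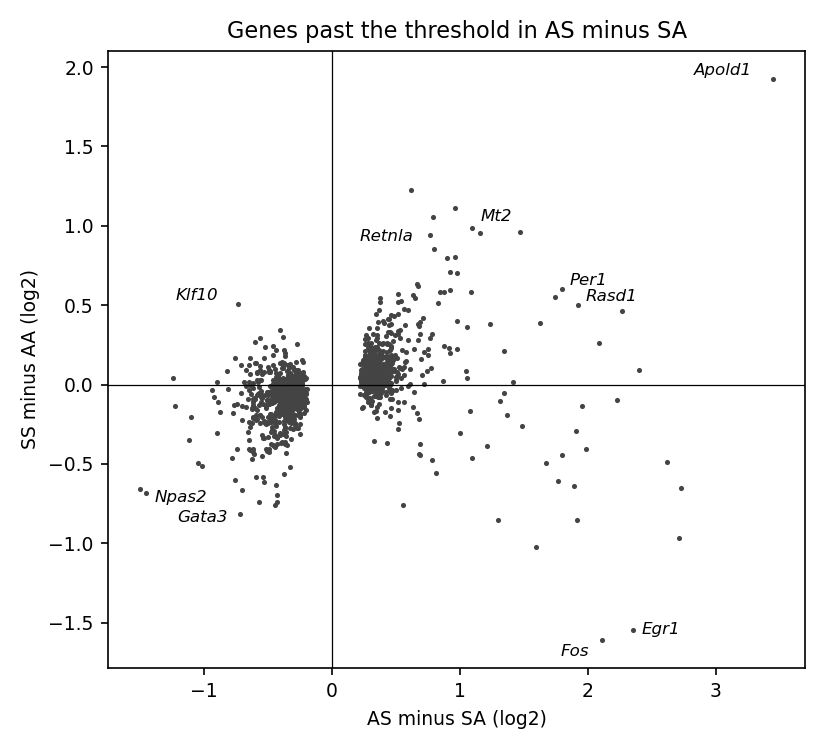
AS minus SA (horizontal) against SS minus AA (vertical), both log2, for the 1331 genes past the threshold in AS minus SA, with 1 point per gene. Most points lie in the quadrants of equal sign, and the genes with AS minus SA above 1 spread to both sides of 0, from Apold1 at 1.93 to Fos at -1.61.

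The direction of the differences varied with brightness. Of 5128 genes with a mean log2 value under 6, 240 were higher in AS and 21 lower, and of 6302 genes with a mean above 9, 117 were higher and 376 lower. The median of AS minus SA was 0.10 in the dim genes and -0.06 in the bright ones. The large rises were not dim: 24 of the 42 had a mean above 9, 17 lay between 6 and 9 and 1 was under 6. Over probe sets, the SD of an array was 2.404 to 2.414 in AS and 2.425 to 2.468 in SA, and the part of this in the small differences was not tested. Further quantile normalization, which equalises that spread, left 815 genes, of which 53.9% were higher in AS, beside 47.2% as deposited, and with only probe sets brighter than 6 on average 34.4% of 1360 genes were higher.

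**Figure D5:**
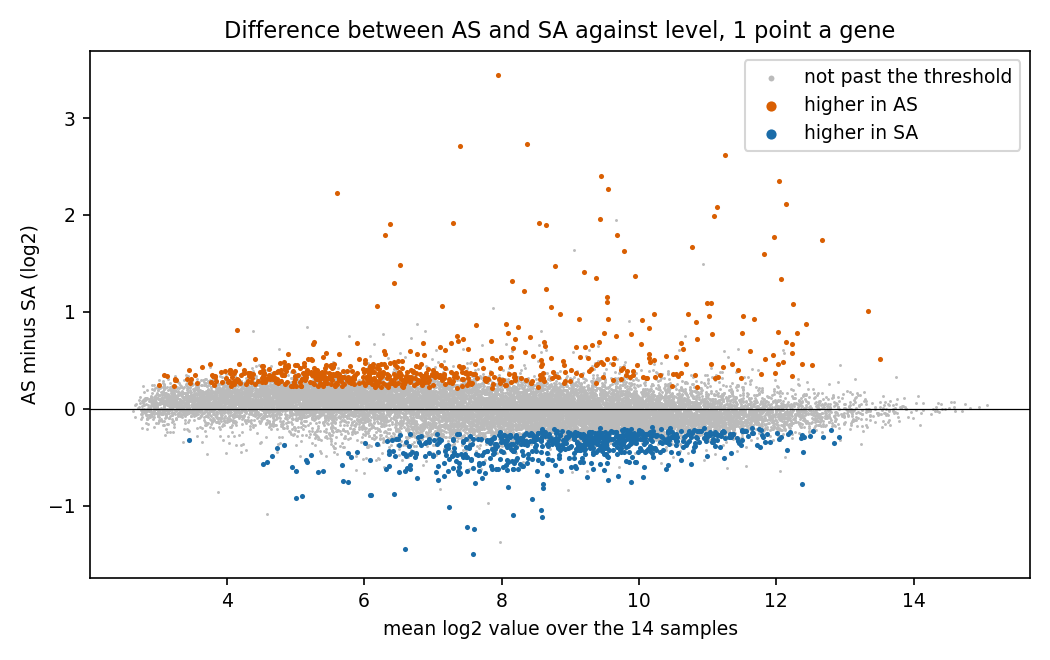
AS minus SA (log2, vertical) against the mean log2 value over the 14 samples (horizontal), with 1 point per gene at its brightest probe set; coloured points passed the threshold. Small rises cluster at low values and small falls at middle and high values, while 24 of the 42 rises above 1 have a mean over 9.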

How the data were processed

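Left-lung RNA of 16 mice was read on Affymetrix 430 2.0 arrays. The authors deposited 1 log2 value per probe set and array, taken as log2 from its range of 2.4 to 15.11; array medians were 6.902 to 6.934. How background was corrected and arrays were normalized and summarised is not given in the sources used here. The authors used limma, per the submitters' processing notes. No detection call was made, so dim probe sets were kept; the number of arrays limits precision.

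Of 45101 probe sets, 64 controls were left out. Of the 45037 tested, 34945 had 1 symbol, 932 several and 9160 none; 34741 symbols were updated through Entrez identifiers. The brightest of a gene's probe sets with 1 symbol stood for it (18193 genes).

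Groups came from the sample titles. AS replicates 3 and 4, and SS replicates 1 and 2, differed by little more than technical noise (ratio of root mean squares over variable and stable probe sets 1.35 and 1.24, other pairs 2.84 to 5.96) and were averaged. One limma 3.58.1 fit (R 4.3.3; lmFit, contrasts.fit, eBayes) held a mean for each of 4 groups in 14 samples, with 10 residual degrees of freedom, so that all groups shared the estimate of the spread. Tests were two-sided with Benjamini-Hochberg adjustment over all probe sets and a threshold of 0.05; ± is the standard error of the fit unless named otherwise. The script was tested on simulated data. Same-numbered AS and SA samples had deviations correlated at 0.041 to 0.284, not all above 0.1, so numbers were not treated as pairs.

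The samples compared, the 42 gene lists (562 of 614 genes matched) and the rules were chosen with earlier results of these data known. Named were the 15 largest rises and falls among called genes without overlap, up to 4 called and 3 other members of each list, and 5 AhR genes; unnamed transcripts were counted only, and further names are marked in the text. Alternatives changed the samples in the fit, averaging, block, array weights, normalization, filter, moderation and the probe set used.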

Additional observations from a re-analysis of the deposited data

Results flagged for a closer look

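In the groups of 4 samples (AA and SA), 29 values lay far outside the other 3 among 418 groups of values checked for the named genes by Dixon's test, where chance gives about 1 in 20 groups. SA replicate 4 gave 11 of them. It stood out in cell cycle genes, with Mki67 at 9.42, Rrm2 at 8.88 and Birc5 at 7.39, and in contractile genes, with Tagln at 11.81, Acta2 at 12.66 and Actg2 at 9.26. It was also high in Nfil3 (8.17), Hmox1 (8.92), Oasl2 (8.84) and Mfap5 (10.18) and low in the airway protein Bpifa1 (10.01, others 11.81 to 12.06).

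SA replicate 1 was high in Tiparp (10.84) and Stc1 (7.93) and low in Dnajb1 (11.22). SA replicate 2 was low in Bnip3 (10.01) and high in Ckmt2 (9.56), and SA replicate 3 was high in Csf2 (8.08).

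In AA, replicate 3 was high in Cxcl2 (5.75), Cxcl1 (8.41), Retnla (9.85) and Spred3 (5.33) and low in Irgm2 (9.95) and Lpcat1 (12.88). AA replicate 2 was low in Tpx2 (5.91) and Ppbp (8.24) and high in Ccdc39 (8.86). AA replicate 4 was high in Rorb (5.06) and Bnip3 (11.26), and AA replicate 1 was low in Idi1 (10.45). The AS and SS groups, with 3 samples each, were not checked in this way.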

How the results depend on the processing

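The count of 1331 genes (3291 probe sets) stayed within 1.5 times under array weights, median centring, the filter above 6, trend with robust moderation, the unmoderated test and, for genes, 1 probe set per gene. It was 217 genes (686 probe sets) with only AS and SA samples in the fit, 3321 (7748) with all 16 arrays counted separately, 815 (2175) after quantile normalization and 475 (1466) without AS replicates 3 and 4, of which 425 genes were among the 1331. Leaving out any other sample gave 448 to 1848 genes and 1232 to 4461 probe sets. With the replicate number as a block and all 16 arrays the count was 3208 genes (7723 probe sets), beside 3321 without it; since the numbers were not shown to pair samples, this block is given here only. None of the 1331 genes that could be compared changed sign in these alternatives, an outcome largely fixed in advance. In 1264 of them AS and SA did not overlap, so leaving out a sample cannot reverse the sign. Leaving out AA or SS samples, or changing the moderation, leaves the difference itself as it was. The filter above 6 tested 13065 of 18193 genes, and the mean of all probe sets was run for named genes only. The share of genes with equal sign in SS minus AA was 73.4% to 77.3% over its 3 alternatives (77.0% as reported). Of 83 named genes past the threshold, 40 kept their call in up to 27 alternatives, 43 lost it in at least 1 and 0 reversed. The same limit applies to the lack of reversals here. The fit of AS and SA alone ended 38 of these calls and the unmoderated test 27, among the latter Egr3, Dbp, Ppp1r3c and Lum. Calls ended by further quantile normalization included those of Il6, Mpo, Sqle, Cyp51, Myh11, Lrrn4 and Ucp1. Those ended by the mean of all probe sets included Synpo2, Col8a1, Tiparp, Cyp51 and Myh11. With 3 and 4 samples per group and no detection calls, differences of dim genes are the least certain.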

Other observations

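Gene families defined by their symbols, and looked at after other results of these data were known, divided unequally. Of 336 zinc finger genes named Zfp with a number, 48 were lower in AS and 2 were higher, with a median AS minus SA of -0.16, beside 3.86% of all genes lower and 3.45% higher. Of 1749 unnamed transcripts with Rik or Gm symbols, 94 were higher and 45 lower (median 0.08). Among 46 ribosomal protein genes 0 were higher and 1 was lower, and among 17 histone genes 0 were higher and 3 were lower. The lower genes were brighter than the higher ones, with median log2 levels of 9.14 and 6.49 beside 7.92 over all genes, and the part of brightness in these counts was not tested.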
